A study of Mus musculus with 22 samples.

Results

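The genes described here encode the matrix and junction proteins by which embryonic cells hold to their surroundings and to each other: collagens, laminins, integrins, cadherins, protocadherins and claudins. Members were all array probes whose single platform gene symbol matched the names of these families (Col, Lam, Itg, Cdh, Pcdh or Cldn followed by a chain letter or number). The rule used names and no measured value. It found 112 of 10500 probes, for 110 genes, of which 78 probes passed the filter on dim signal and were tested. The 112 probes comprised 31 collagen, 8 laminin, 17 integrin, 17 cadherin, 18 protocadherin and 18 claudin probes. The other 3 probes, for Itgb1bp1, Itgb1bp2 and Itgb3bp, matched the pattern of letters but encode proteins that bind an integrin tail.

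Mouse embryos of every group, controls included, lacked the folate receptor gene Folr2 (Folr2-/-), and RNA was taken from their anterior neural tube, so there was no Folr2 wild-type group to compare with. Dams received intraperitoneal sodium arsenate at 9.6 mg arsenic per kg (the arsenic arm) or water at 10 µL per g (the control arm) on gestational day (GD) 7 and GD 8, each at hour 12. The harvests are named by day and hour: GD8:15 (3 h after injection 2; 4 control and 4 arsenic arrays), GD9:00 (12 h; 4 control and 3 arsenic) and GD9:12 (24 h; 3 control and 4 arsenic). Replicates are numbered in accession order. Nothing in the labels ties an array to a dam of its own, so a p-value here measures the spread between samples, which may in part be technical.

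Laminin trimers and type IV collagen networks form the basement membrane, the sheet of matrix that underlies the neuroepithelium, and integrins are the receptors by which cells bind it. Fibrillar collagens build the looser matrix of mesenchyme and cartilage. Classical cadherins join neighbouring cells by calcium-dependent contacts, claudins seal tight junctions, and when the neural plate folds into a tube the neuroepithelium is known to exchange E-cadherin (Cdh1) for N-cadherin (Cdh2).

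Promoter windows from RefSeq (build GRCm38.p6), reaching from 250 bases before to 50 bases after a gene's start, were held for 68 of the 110 member genes. Those of 4 genes are shown because the results below turn on them. Col11a1 and Cldn4 were higher at GD9:12 than at GD8:15 in both arms, and Col4a1 and Col4a2 lie head to head, the first called between stages and the second not. Each window reads 5′ to 3′ on the gene's own strand, and capitals mark matches, on either strand, to the letters of an E-box, a GC box, a CCAAT box, a TATA box or an AP-1 site, as spelled out after the windows.
Col11a1, chr3:114030290-114030589, plus strand: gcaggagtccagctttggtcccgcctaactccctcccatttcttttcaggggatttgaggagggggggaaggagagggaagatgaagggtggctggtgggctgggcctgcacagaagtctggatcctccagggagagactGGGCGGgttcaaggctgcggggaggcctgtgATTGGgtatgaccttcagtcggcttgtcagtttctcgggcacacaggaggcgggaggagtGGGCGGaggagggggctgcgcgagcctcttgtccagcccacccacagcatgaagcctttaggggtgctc
Cldn4, chr5:134946885-134947184, minus strand: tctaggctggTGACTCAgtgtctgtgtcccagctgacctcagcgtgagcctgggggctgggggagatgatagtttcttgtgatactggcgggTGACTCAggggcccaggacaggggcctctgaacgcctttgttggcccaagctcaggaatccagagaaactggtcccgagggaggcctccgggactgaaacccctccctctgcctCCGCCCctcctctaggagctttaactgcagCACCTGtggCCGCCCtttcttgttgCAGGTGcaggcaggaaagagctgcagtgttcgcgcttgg
Col4a1, chr8:11312777-11313076, minus strand: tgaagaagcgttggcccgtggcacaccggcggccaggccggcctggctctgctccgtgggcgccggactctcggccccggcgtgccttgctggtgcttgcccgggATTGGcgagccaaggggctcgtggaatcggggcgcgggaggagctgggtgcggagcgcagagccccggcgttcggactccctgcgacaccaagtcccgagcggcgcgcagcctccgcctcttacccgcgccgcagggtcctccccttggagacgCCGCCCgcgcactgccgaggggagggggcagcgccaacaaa
Col4a2, chr8:11312555-11312854, plus strand: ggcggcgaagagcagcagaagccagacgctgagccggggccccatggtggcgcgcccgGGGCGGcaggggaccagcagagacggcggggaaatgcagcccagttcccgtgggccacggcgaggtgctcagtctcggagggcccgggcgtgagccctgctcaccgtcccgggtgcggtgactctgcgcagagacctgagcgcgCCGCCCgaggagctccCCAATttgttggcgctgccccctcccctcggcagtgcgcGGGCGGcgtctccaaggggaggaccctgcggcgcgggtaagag

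The Cldn4 window held 2 matches to the E-box searched, CACCTG, which 20.2% of all 32851 windows held. It also held 2 matches to the AP-1 site searched, TGACTCA, which was found in 5.2% of windows. The collagen windows held neither. The GC box searched, GGGCGG, was in 35.7% of windows, with 2 matches each in Cldn4 and Col11a1, 1 in Col4a1 and 3 in Col4a2. The CCAAT box, found in 37.4% of windows, had 1 match in each of the 3 collagen windows and none in that of Cldn4. No window shown held the TATA box letters, TATAAA, which 13.6% of windows did. The Col4a1 and Col4a2 windows shared 78 bases of sequence, read on opposite strands, with 20 bases between the annotated starts. The Col4a1 start (11312826, minus strand) and the Col4a2 start (11312805, plus strand) each lay inside the other transcript, so the 2 transcripts overlap there. The GC box match of Col4a1 and 1 of those of Col4a2 are the same bases read on the 2 strands. A match is a run of letters in a window, not a site shown to be bound, and no match says only that the letters are not in that window.

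Deposited intensities ran from 56 to 85027, and array medians from 123 to 291. Arrays differed in quality: bands, stretches of consecutive probes that were dim on 1 array, covered 13.8% and 15.7% of probes on control GD9:00 replicates 1 and 2, and arsenic GD8:15 replicate 3 had the lowest mean correlation with their group (0.870). Folr2 itself could not serve as a check of genotype between groups, since every group lacked it; its probe lay at percentile 2.93 of signal. Xist, transcribed from the inactive X of females, was higher on all arsenic than on all control arrays at GD8:15 (8.43 ± 0.55 against 7.06 ± 0.03 log2, SD, n = 4 and 4) and at GD9:00 (10.07 ± 0.29 against 7.53 ± 0.79, n = 3 and 4). At those stages the sex of the embryos and arsenic cannot be told apart. At GD9:12 Xist was 8.40 ± 2.54 in controls, with 1 array at 11.34, and 7.06 ± 0.10 with arsenic (n = 3 and 4). Within the arsenic arm Xist also differed by stage. There the Y-linked gene Eif2s3y read 7.11 to 7.30 at GD8:15 and 7.515 to 8.14 at GD9:12, so sex and stage cannot be told apart in that arm. Marker probes of heart and muscle fell with stage: 5 of 10 tested (Actc1, Myl7, Acta2, Gata6 and Nkx2-5) were lower at GD9:12 than at GD8:15 in controls, with a list median of -0.77 against -0.01 for all probes. Their summed intensity ran from 18450 to 37058 in the GD8:15 controls and from 3309 to 5298 in the GD9:12 controls, and in bulk RNA fewer cells of a type and less RNA per cell cannot be told apart. With arsenic the sums were 5736 to 12829 at GD8:15, below every control, 10692 to 27113 at GD9:00 and 3441 to 4752 at GD9:12. There 9 of the 10 probes had positive differences to GD9:00 (median 0.50, none called), and 4 were called lower in the next step. In that next step the haemoglobin gene Hba-a1 rose most of the 6 tested blood probes. It rose by 4.15 in controls (limma adjusted p = 0.00593) and by 3.88 with arsenic (adjusted p = 0.0191). Hba-a1, Hbb-y and Hba-x were called higher there in controls, and Hba-a1 alone with arsenic. Alas2 and Gata1 of the same list were not called, at 0.26 and 0.015 in controls and -0.15 and -0.05 with arsenic. In the summed blood list Hba-a1 was by far the brightest probe, at a mean log2 of 12.83, with Alas2 next at 7.75. That sum went in controls from a range of 1012 to 6913 at GD9:00 to one of 16198 to 45623 at GD9:12. With arsenic it went from 2154 to 4031 to a range of 17832 to 49809. The part of these marker differences in the members' results was not tested.

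Values below are log2 of the quantile-normalised intensity, and a difference is later minus earlier stage, or arsenic minus control, on that scale. A probe is called where the limma fit over all 7830 tested probes gave a Benjamini-Hochberg adjusted p under 0.05. The member probes were dimmer than the array as a whole, with a median mean level of 7.61 against 7.87. The 34 member probes under the filter, at a mean below 7.2, included Lamb1, the partner of Lamc1 in the common laminin trimers, and Lama2, Lama4 and Lamb2. They also included the endothelial genes Cdh5 and Cldn5, the fibronectin receptor chain Itga5, Col1a2, Col6a1 and Col6a3, and Cdh6. The families are described by the probes that passed, and background signal shrinks the differences of dim probes on this scale. Just outside the filter lay Lamb1 (7.196) and just inside it Pcdhb16 (7.202).

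**Figure D1:**
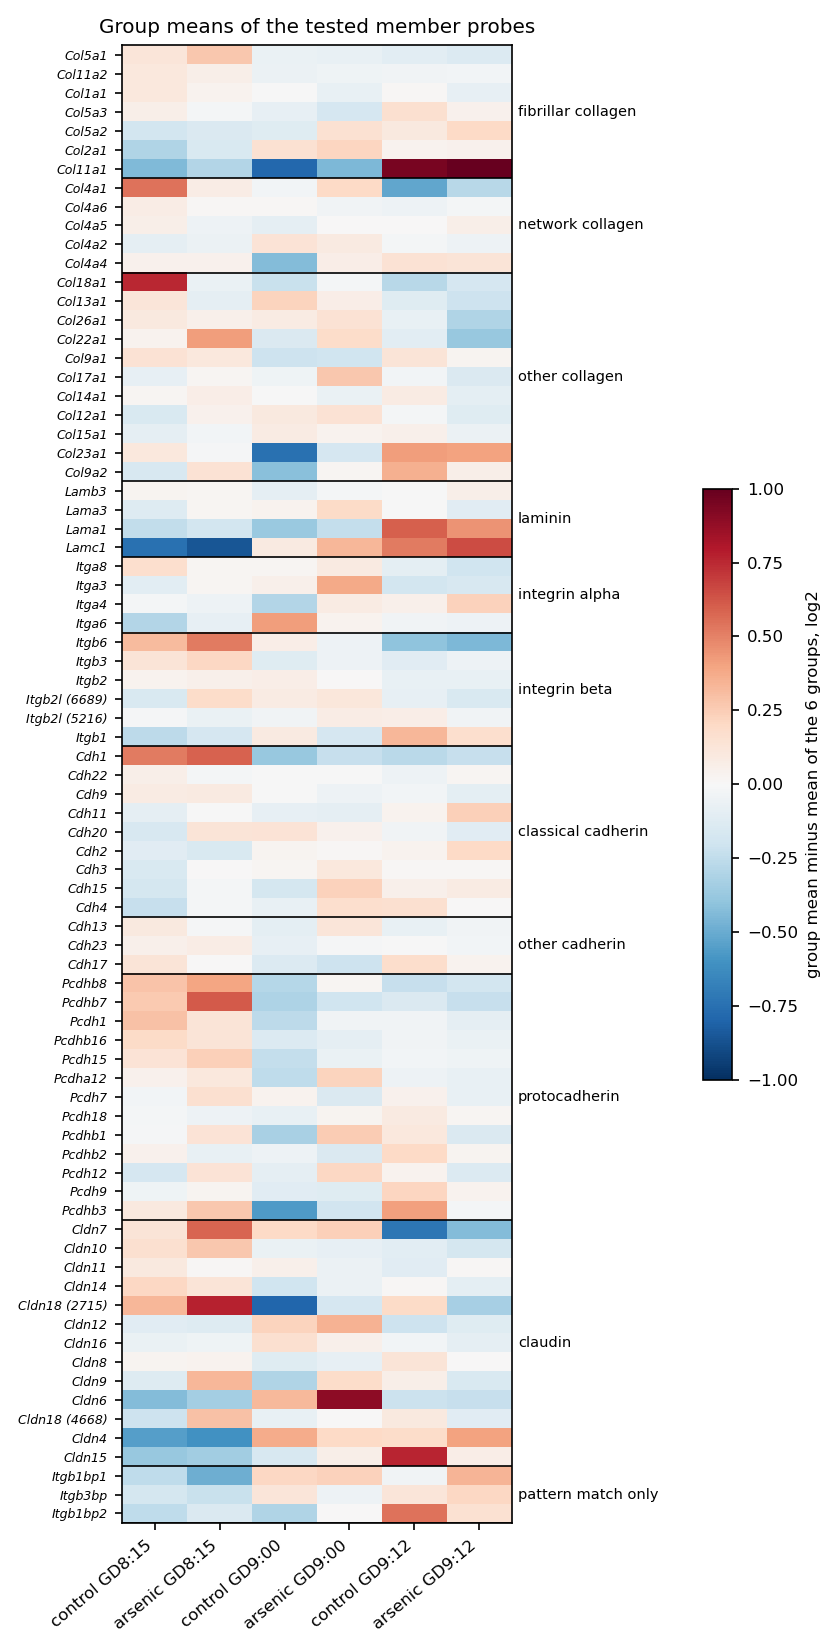
Group means of the 78 tested member probes, 1 row per probe in blocks by role, as the log2 difference of each group's mean from the mean of the 6 groups (columns). Lamc1, Col11a1 and Cldn4 are red (above their mean) in both GD9:12 columns, and Cdh1 is red in both GD8:15 columns. Banded values are included.

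Members differed between stages, and none passed the test of arsenic. Over the 6 stage comparisons, 23 of 78 tested member probes were called at least once, in 45 calls: 6 of 23 collagens, 2 of 4 laminins, 4 of 10 integrins, 2 of 12 cadherins, 2 of 13 protocadherins and 7 of 13 claudins. None of the 3 probes that match by letters only was called. No share of all probes called at least once was taken, so these family counts have no background beside them. The shares within each comparison are given below. Leaving out each array in turn kept 18 of the 45 calls in every refit that tested the probe. Of these, the call of Pcdhb16 was tested in only 4 of the 8 refits of its comparison. Only 3 calls also held under every other setting in which they could be fitted. These were Lamc1, Cldn4 and Cdh1 from GD8:15 to GD9:12 in the arsenic arm. A fit within 1 series of array codes, described below, was not among their settings. Arsenic GD8:15 arrays were all of series D and arsenic GD9:12 arrays all of series C, and Xist and Eif2s3y also differed between these groups, as given above. Of the 45 calls, 24 ended when only the groups compared were fitted, 20 on the authors' scaling and 6 with median centring. Leaving aside control GD9:00 replicates 1 and 2 together, chosen after seeing the data, ended 11. The fit of series C alone, possible for control calls only and with 1 GD8:15 control array, is given below. Between GD8:15 and GD9:00 in controls 12 members were called (15.4%), 5 higher and 7 lower, against 15% of all tested probes (8.15% higher and 6.83% lower). Between GD9:00 and GD9:12 in controls 7 were called (8.97%), 5 higher and 2 lower, against 11.2% (3.82% higher and 7.42% lower). Over the whole interval in controls 8 were called (10.3%), 6 higher and 2 lower, against 7.71% (3.77% higher and 3.95% lower). In the arsenic arm the same 3 comparisons called 7, 4 and 7 members. These were 8.97% (5 higher, 2 lower) against 4.21% of all probes (2.4% higher, 1.81% lower), 5.13% (1 higher, 3 lower) against 3.88% (1.9% higher, 1.98% lower), and 8.97% (3 higher, 4 lower) against 13.8% (7.23% higher, 6.59% lower). The members' shares thus lay on both sides of the background, and the results below are about named genes, not about the families as sets.

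The direction of a stage difference depended on the scaling. As deposited, array means were 600.9 to 602.9 at GD8:15, 501.5 to 502.3 at GD9:00 and 1004 to 1007 at GD9:12, and on that scale the median of all probes shifted by -0.49, 0.79 and 0.27 over the 3 control comparisons, where 31, 64 and 13 members were called. Of all 7830 tested probes, 2744, 5612 and 1421 were called in these comparisons. The 31 members were then all lower, the 64 all higher, and 12 of the 13 higher. In the arsenic arm the shifts were -0.26 and 0.33 for the first 2 comparisons and 0.05 for the third. There 2 members were called (both lower), 10 (all higher) and 8 (7 higher), of 151, 1816 and 1389 probes called in all. Centring each array on its median instead called 10 higher and 2 lower from GD9:00 to GD9:12 in controls, of 1364 probes called in all. In the arsenic arm it called 1 higher and 2 lower, 6 higher and 2 lower, and 8 higher and 5 lower over the 3 comparisons. Probes called in all were there 62, 765 and 1591. Quantile normalisation sets every array to 1 distribution, so changes below are relative to the array as a whole.

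Among laminins, Lamc1 rose with stage in both arms. It encodes the gamma 1 chain, which most laminin trimers contain. Control arrays read 9.02, 9.07, 9.01 and 8.48 at GD8:15, then 9.34, 9.90, 10.05 and 9.61 at GD9:00, then 10.15, 10.35 and 9.97 at GD9:12. Arsenic arrays read 8.89, 8.87, 8.64 and 8.70, then 10.15, 9.96 and 9.81, then 10.32, 10.62, 10.35 and 9.87. Every GD9:00 and GD9:12 array lay above every GD8:15 array, in both arms. From GD8:15 to GD9:12 Lamc1 rose by 1.26 ± 0.19 (SE; 2.4-fold, limma adjusted p = 0.000669) in controls and by 1.51 ± 0.17 (2.85-fold, adjusted p = 4.9e-05) with arsenic. The rise to GD9:00 was 0.83 ± 0.17 in controls (adjusted p = 0.00455) and 1.19 ± 0.19 with arsenic (adjusted p = 0.00141). The later steps of 0.43 and 0.32 did not pass the test. The 4 calls held with any single array left out, at 1.13 to 1.35 over the whole interval in controls and 1.39 to 1.64 with arsenic. On the authors' scaling the calls to GD9:00 ended in both arms (0.53, adjusted p = 0.0624, and 0.68, adjusted p = 0.154), and the arsenic one ended with median centring too (0.94, adjusted p = 0.269). The calls over the whole interval held on both scalings.

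Lama1 encodes the alpha 1 chain of the early embryonic laminin that lies under the neuroepithelium. In controls it read 7.88, 7.70, 7.81 and 7.01 at GD9:00 and 8.98, 8.30 and 8.41 at GD9:12, with no overlap. The rise was 0.97 ± 0.29 (1.95-fold, limma adjusted p = 0.0404). The call ended without control GD9:00 replicate 2 or 4 or any 1 control GD9:12 array (0.75 to 1.08 over the arrays left out, highest adjusted p 0.172). The arsenic arrays also did not overlap between these stages, at 7.78, 7.69 and 7.71 against 8.45, 8.31, 8.27 and 8.64, but their difference of 0.69 ± 0.29 did not pass (adjusted p = 0.235). Lama3 and Lamb3, chains of the laminin of surface epithelia, were called in no stage comparison.

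**Figure D2:**
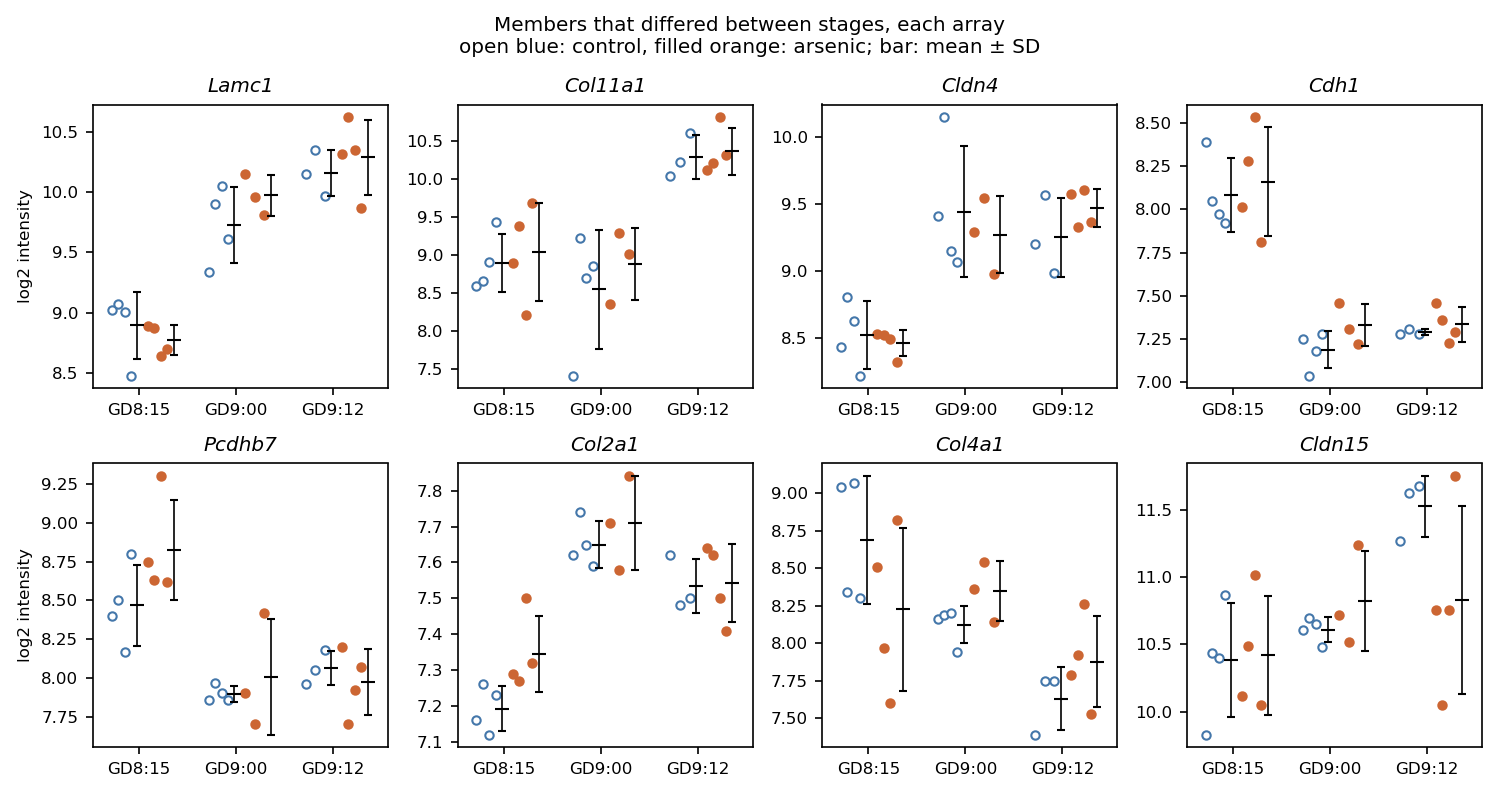
Log2 quantile-normalised intensity (vertical axis) of 8 members on every array, by stage (horizontal axis), open blue circles for control and filled orange circles for arsenic, with the mean ± SD of each group beside them. Lamc1 and Cldn4 lie higher at GD9:00 and GD9:12 than at GD8:15, Col11a1 is high at GD9:12 in both arms (10.04 to 10.81), and Cdh1 is high at GD8:15 in both arms (7.81 to 8.53).

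Among fibrillar collagens, Col11a1 rose to GD9:12 in both arms. It encodes a chain of type XI collagen, a minor fibrillar collagen of cartilage. Control arrays read 8.59, 8.66, 8.91 and 9.43 at GD8:15, 7.42, 9.22, 8.70 and 8.86 at GD9:00, then 10.04, 10.22 and 10.61 at GD9:12. Arsenic arrays read 8.90, 9.38, 8.21 and 9.69, then 8.36, 9.29 and 9.01, then 10.12, 10.21, 10.81 and 10.31. All 7 GD9:12 arrays lay above all 15 earlier ones. From GD9:00 to GD9:12 Col11a1 rose by 1.74 ± 0.38 (3.33-fold, limma adjusted p = 0.00725) in controls and by 1.48 ± 0.38 (2.78-fold, adjusted p = 0.0372) with arsenic, and over the whole interval by 1.39 ± 0.38 (adjusted p = 0.0312) and 1.32 ± 0.35 (adjusted p = 0.0189). The GD9:00 to GD9:12 call in controls held with each array left out (1.36 to 1.95) and ended when only the 2 groups were fitted (adjusted p = 0.0509). The haemoglobin gene Hba-a1 rose in this same step in both arms, as given above. The call over the whole interval in controls ended without any 1 of the arrays other than control GD8:15 replicate 4 (1.22 to 1.58, highest adjusted p 0.134), and with arsenic without GD8:15 replicate 3 (1.05) or GD9:12 replicate 3 (1.16). The later-step call with arsenic ended without any 1 array other than arsenic GD9:00 replicate 2 (1.22 to 1.68, highest adjusted p 0.181).

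Col2a1, the major collagen of cartilage and notochord, rose to GD9:00 in both arms. Control arrays read 7.16, 7.26, 7.12 and 7.23 at GD8:15 and 7.62, 7.74, 7.65 and 7.59 at GD9:00, then 7.62, 7.48 and 7.50 at GD9:12. No later control array overlapped the GD8:15 arrays. The rise to GD9:00 was 0.46 ± 0.08 (1.37-fold, limma adjusted p = 0.00129) in controls and 0.36 ± 0.09 (1.29-fold, adjusted p = 0.0209) with arsenic. On the authors' scaling Col2a1 read -0.05 and 0.05 for these differences, and the arsenic call ended without arsenic GD9:00 replicate 1 or 3 (0.37 and 0.31). The arsenic call ended also with median centring and when only the 2 groups were fitted. Over the whole interval the control rise of 0.34 ± 0.09 passed (adjusted p = 0.0194) and ended without control GD9:12 replicate 1 or 3 (0.29 and 0.36) and on the authors' scaling (0.52, adjusted p = 0.177), while the arsenic value of 0.20 ± 0.08 did not pass (adjusted p = 0.104). Col1a1, Col5a1, Col5a2, Col5a3 and Col11a2 were not called in any stage comparison.

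Among network collagens, Col4a1 was lower at GD9:12 than at GD8:15 in controls. It encodes the alpha 1 chain of the type IV network of every basement membrane. Control arrays read 9.04, 8.34, 9.07 and 8.30 at GD8:15, 8.16, 8.19, 8.20 and 7.94 at GD9:00, then 7.39, 7.75 and 7.75 at GD9:12. The groups followed each other without overlap. Col4a1 fell by 1.06 over the interval (SE 0.25, 2.08-fold, limma adjusted p = 0.0151), a call that ended without control GD9:12 replicate 1 (-0.93, adjusted p = 0.0722). With arsenic the arrays read 8.51, 7.97, 7.60 and 8.82 at GD8:15 and 7.79, 7.92, 8.26 and 7.53 at GD9:12, overlapping, with a difference of -0.35 ± 0.24 (adjusted p = 0.333). The change of the arsenic effect between stages, which tests whether the arms differ, was called for no member.

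Col4a2 encodes the partner chain and, as shown above, starts on the other strand with 20 bases between the starts, where the transcripts overlap. Its probe was dim, at 7.22, 7.21, 7.16 and 7.06 in GD8:15 controls and 7.34, 7.20 and 7.16 in GD9:12 controls, and its difference was 0.07 ± 0.10 (adjusted p = 0.739). The mean level of 7.25 lay near the filter line of 7.2, where a fall has little room on this scale. Col4a4, Col4a5 and Col4a6 were not called.

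Other collagens moved between neighbouring stages in controls. Col23a1, a transmembrane collagen, read 8.99, 8.79, 8.30 and 8.86 at GD8:15, 8.34, 7.24, 7.67 and 8.28 at GD9:00, then 9.27, 8.69 and 9.18 at GD9:12. It fell by 0.85 (SE 0.23, limma adjusted p = 0.0178) and then rose by 1.16 ± 0.24 (adjusted p = 0.00534; 0.0627 when only the 2 groups were fitted). The fall was -0.64 with 1 banded value set aside, and it ended without control GD8:15 replicate 1 or 4 or control GD9:00 replicate 2 (highest adjusted p 0.0614). Col9a1 and Col9a2 encode chains of type IX collagen, which coats cartilage fibrils, and rose from GD9:00 to GD9:12 by 0.34 ± 0.10 (adjusted p = 0.0291) and 0.78 ± 0.22 (adjusted p = 0.0307). Each of these 2 calls ended with 4 of the 7 arrays left out singly: for Col9a1 control GD9:00 replicate 3 or 4 or GD9:12 replicate 2 or 3 (0.30 to 0.38), for Col9a2 control GD9:00 replicate 1 or any GD9:12 array (0.52 to 0.88). Col9a1 had before fallen by 0.35 (adjusted p = 0.014), a call that ended without control GD8:15 replicate 1 (highest adjusted p 0.0539). Col18a1, the basement membrane collagen from which endostatin is cut, ranged from 8.80 to 11.84 within GD8:15 controls and was called in no comparison.

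Among integrins, Itga6 stood high in GD9:00 controls. It encodes the alpha chain of a laminin receptor. Control arrays read 7.11, 7.17, 7.16 and 6.94 at GD8:15, 7.83, 8.19, 7.56 and 7.66 at GD9:00, then 7.36, 7.46 and 7.25 at GD9:12. The GD9:00 arrays lay above all other control arrays. Itga6 rose by 0.72 ± 0.11 (1.64-fold, limma adjusted p = 0.000642), a call kept with each array left out (0.58 to 0.80) but not on the authors' scaling (0.22, adjusted p = 0.433), and fell by 0.45 by GD9:12 (adjusted p = 0.0227). The later fall ended without control GD9:00 replicate 2 (-0.32) or control GD9:12 replicate 1 or 3 (-0.45 and -0.40), and on the authors' scaling read 0.19. Arsenic arrays read 7.24, 7.21, 7.50 and 7.30, then 7.39, 7.40 and 7.50, then 7.32, 7.47, 7.35 and 7.22, with differences of 0.12 and -0.09 that did not pass. The change of the arsenic effect from GD8:15 to GD9:00 was -0.60 (limma adjusted p = 0.393), so the step was not shown to differ between the arms.

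Itgb1 encodes the beta 1 chain shared by most matrix receptors. It read 7.06, 7.23, 7.40 and 7.12 in GD8:15 controls and 8.00, 8.11 and 7.29 in GD9:12 controls, where replicate 3 fell within the earlier range. The rise was 0.60 ± 0.15 (1.51-fold, limma adjusted p = 0.021) and ended without control GD8:15 replicate 1 or 4 or control GD9:12 replicate 1 or 2 (0.43 to 0.85 over the arrays left out, highest adjusted p 0.148). With arsenic the groups did not overlap (7.20 to 7.44 against 7.46 to 7.83), at 0.34 ± 0.14 (adjusted p = 0.116). Itgb6, the beta chain of an epithelial integrin that activates TGF-beta, fell by 0.96 over the interval with arsenic (SE 0.27, adjusted p = 0.0237) and read -0.72 ± 0.29 in controls (adjusted p = 0.153; 0.03 on the authors' scaling). Its call ended without arsenic GD8:15 replicate 2 or 4 or GD9:12 replicate 2, 3 or 4 (-1.21 to -0.77), on the authors' scaling (-0.24, adjusted p = 0.677) and with median centring (-0.24, adjusted p = 0.601). Itga3, an alpha chain of a laminin receptor, fell by 0.53 from GD9:00 to GD9:12 with arsenic (adjusted p = 0.027), from 7.58, 7.98 and 8.05 to 7.43, 7.37, 7.30 and 7.23. That call ended without arsenic GD9:00 replicate 2 or 3 or GD9:12 replicate 3 or 4 (-0.69 to -0.45) and on the authors' scaling (-0.25, adjusted p = 0.585).

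Among cadherins, Cdh1 was lower after GD8:15 in both arms. Control arrays read 8.39, 8.05, 7.97 and 7.92 at GD8:15, 7.25, 7.04, 7.18 and 7.28 at GD9:00, then 7.28, 7.31 and 7.28 at GD9:12. Arsenic arrays read 8.01, 8.28, 8.53 and 7.81, then 7.46, 7.31 and 7.22, then 7.46, 7.36, 7.23 and 7.29. All 8 GD8:15 arrays lay above all 14 later ones. From GD8:15 to GD9:00 Cdh1 fell by 0.90 (SE 0.13, 1.86-fold, limma adjusted p = 0.00028) in controls and by 0.83 (SE 0.14, 1.77-fold, adjusted p = 0.00251) with arsenic, and its later differences of 0.11 ± 0.14 and 0.01 ± 0.14 did not pass. Over the whole interval it fell by 0.79 (adjusted p = 0.00228) and 0.82 (adjusted p = 0.00052). The 4 calls held with any single array left out, with differences from -0.97 to -0.70. The control call over the whole interval ended on the authors' scaling (-0.60, adjusted p = 0.0754), and the arsenic call to GD9:00 when only the 2 groups were fitted (adjusted p = 0.163). The later values lay near the filter line, where differences shrink.

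Cdh2, which neuroepithelium gains as it gives up Cdh1, read 7.06, 7.08, 7.06 and 7.19 in GD8:15 controls and 7.14, 7.36 and 7.24 at GD9:12. Its differences of 0.15 ± 0.12 in controls (limma adjusted p = 0.522) and 0.35 ± 0.12 with arsenic (limma adjusted p = 0.0515) did not pass. These control readings lay near the filter line of 7.2, where differences shrink, so a gain of Cdh2 may have been missed. On arsenic GD8:15 replicate 4 the probe lay in a band. Cdh20 rose by 0.30 ± 0.09 from GD8:15 to GD9:00 in controls (limma adjusted p = 0.0259). The call ended without control GD8:15 replicate 1 or control GD9:00 replicate 2 or 4 (0.23 to 0.35), and the value was -0.16 on the authors' scaling. Cdh3, Cdh4, Cdh9, Cdh11, Cdh15 and Cdh22, and the atypical Cdh13, Cdh17 and Cdh23, were called in no stage comparison. Cdh1 also marks surface ectoderm: in that marker list of 6 tested probes the desmosome-associated gene Perp fell by 0.53 and the keratin gene Krt8 rose by 0.53 from GD8:15 to GD9:00 in controls, and Krt18 fell by 1.53 by GD9:12. The summed intensity of that list was 1731 to 2119 in GD8:15 controls, 1392 to 2241 at GD9:00 and 1077 to 1224 at GD9:12. With arsenic Krt18 rose by 1.33 from GD8:15 to GD9:00 (adjusted p = 0.0263), the step in which Cdh1 fell, and the sums ran from 1409 to 1866, then 2096 to 2879, then 1231 to 1432. The part of this list in the Cdh1 result was not tested.

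Among protocadherins, which mediate recognition between neural cells, Pcdhb7 was called in 3 comparisons. Control arrays read 8.40, 8.50, 8.17 and 8.80 at GD8:15, 7.86, 7.97, 7.90 and 7.86 at GD9:00, then 7.96, 8.05 and 8.18 at GD9:12. Arsenic arrays read 8.75, 8.63, 9.30 and 8.62, then 7.90, 7.70 and 8.42, then 8.20, 7.70, 7.92 and 8.07. The later arsenic arrays all lay below the GD8:15 ones. Over the whole interval Pcdhb7 fell by 0.85 with arsenic (SE 0.17, limma adjusted p = 0.00303). That call held with each array left out and ended on the authors' scaling (-0.55, adjusted p = 0.114). In controls the difference of -0.40 did not pass (adjusted p = 0.203; 0.0089 on the authors' scaling). By GD9:00 it had fallen by 0.81 with arsenic (adjusted p = 0.0173) and by 0.57 in controls (adjusted p = 0.0313). The first of these calls ended without arsenic GD9:00 replicate 1 or 2 (-0.77 and -0.66), and the second without any 1 array except control GD8:15 replicate 3 or GD9:00 replicate 2 (-0.66 to -0.46). Beta protocadherins are related neighbours, and a probe may read more than 1 of them, which was not examined here. Pcdhb16 fell by 0.33 from GD8:15 to GD9:00 in controls (adjusted p = 0.00701; 0.0622 when only the 2 groups were fitted). Its probe lay at the filter line and was tested in only 4 of the 8 refits with 1 array of these groups left out. The other 11 tested protocadherin probes were called in no stage comparison.

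Among claudins, Cldn4 rose in both arms. It encodes a tight junction strand protein of simple epithelia. Control arrays read 8.43, 8.81, 8.63 and 8.22 at GD8:15, 9.41, 10.15, 9.15 and 9.07 at GD9:00, then 9.20, 9.57 and 8.99 at GD9:12. Arsenic arrays read 8.53, 8.52, 8.49 and 8.32, then 9.29, 9.55 and 8.98, then 9.58, 9.33, 9.61 and 9.37. All 14 later arrays lay above all 8 GD8:15 arrays. Over the whole interval Cldn4 rose by 0.73 ± 0.21 (1.66-fold, limma adjusted p = 0.0423) in controls and by 1.01 ± 0.20 (2.01-fold, adjusted p = 0.00276) with arsenic, and to GD9:00 by 0.92 ± 0.20 (adjusted p = 0.00574) and 0.81 ± 0.21 (adjusted p = 0.0378). The arsenic call over the whole interval (0.96 to 1.04) and the control call to GD9:00 (0.69 to 1.05) held with each array left out. The control call over the whole interval ended without any 1 array except control GD8:15 replicate 2 (0.57 to 0.86, highest adjusted p 0.218), and the arsenic call to GD9:00 ended without any 1 array except arsenic GD9:00 replicate 3 (0.67 to 0.97, highest adjusted p 0.181). The control call to GD9:00 ended on the authors' scaling (0.59, adjusted p = 0.0518), when only the 2 groups were fitted (adjusted p = 0.0614) and with control GD9:00 replicates 1 and 2 both left aside (0.59, adjusted p = 0.0569). On the authors' scaling the arsenic rise to GD9:00 was 0.38 (adjusted p = 0.485). That call ended too with median centring, with trended, robust eBayes and when only the 2 groups were fitted. The control call over the whole interval ended in the latter 2 settings and without the filter on dim probes.

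Cldn6, an epithelial claudin of the early embryo, and Cldn12 were highest at GD9:00. For Cldn6, arsenic arrays read 7.95, 8.06, 8.81 and 8.00 at GD8:15, 9.26, 8.80 and 10.25 at GD9:00, then 8.41, 8.12, 8.47 and 8.26 at GD9:12. It rose by 1.23 ± 0.28 (2.35-fold, limma adjusted p = 0.0175) and fell by 1.12 (SE 0.28, adjusted p = 0.031), and both calls ended without arsenic GD9:00 replicate 3, at 0.84 and -0.72, and on the authors' scaling, at 0.71 and -0.31. The fall ended also without any other array except arsenic GD9:00 replicate 2 (highest adjusted p 0.164). Control arrays read 8.56, 8.00, 7.67 and 8.22, then 9.14, 8.78, 8.67 and 8.88, then 8.63, 8.14 and 8.22, in the same order, with differences of 0.76 and -0.53 that did not pass (adjusted p = 0.0571 and 0.235). Cldn12 fell from GD9:00 to GD9:12 in both arms, by 0.43 in controls (adjusted p = 0.0273) and by 0.47 with arsenic (adjusted p = 0.0368), after a rise of 0.47 with arsenic (adjusted p = 0.0307). These 3 calls ended without most single arrays: without control GD9:00 replicate 2 or any control GD9:12 array (-0.48 to -0.33), without any 1 array (-0.53 to -0.41), and without any 1 array except arsenic GD8:15 replicate 3 (0.39 to 0.61). On the authors' scaling the control fall of Cldn12 read 0.20, and the arsenic rise and fall were 0.17 and -0.17, not called.

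**Figure D3:**
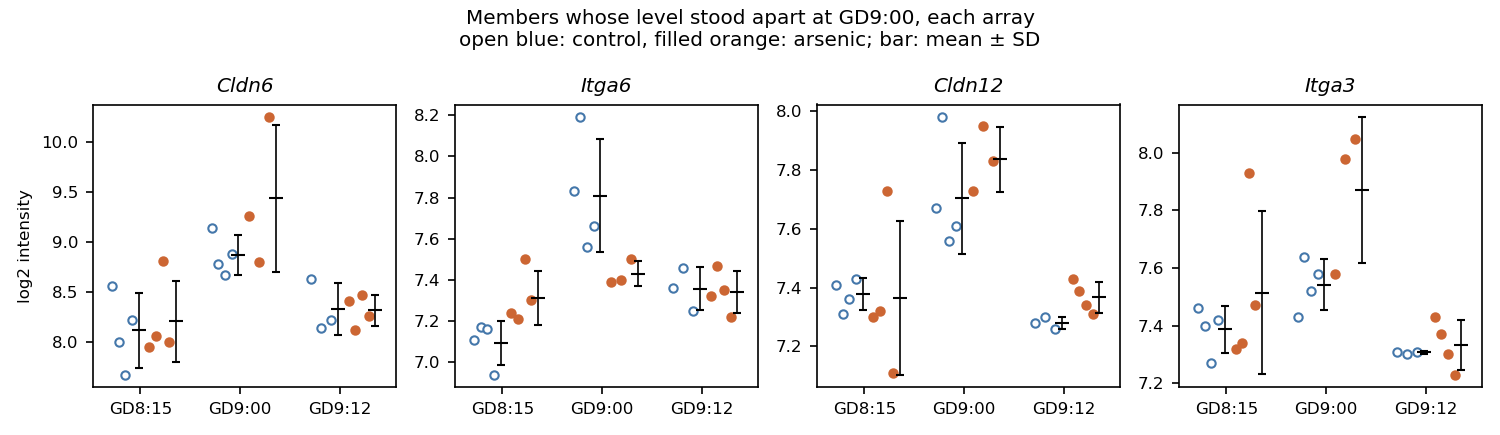
Log2 quantile-normalised intensity (vertical axis) of 4 members on every array, by stage (horizontal axis), open blue circles for control and filled orange circles for arsenic, with the mean ± SD of each group. At GD9:00 Itga6 spans 7.56 to 8.19 in the control arm and 7.39 to 7.50 in the arsenic arm, and 1 arsenic array of Cldn6 stands at 10.25. On the authors' scaling the later control differences of Itga6 and Cldn12 were 0.19 and 0.20.

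Cldn15, a claudin that forms cation pores, read 9.83, 10.44, 10.40 and 10.87 in GD8:15 controls and 11.27, 11.63 and 11.68 in GD9:12 controls, with no overlap. It rose by 1.14 ± 0.32 (2.21-fold, limma adjusted p = 0.032), a call that ended without any 1 array except control GD8:15 replicate 4 (0.96 to 1.31, highest adjusted p 0.118). With arsenic it ranged from 10.05 to 11.75 at GD9:12, and its difference of 0.41 ± 0.29 did not pass. Cldn10 fell by 0.44 with arsenic over the interval (SE 0.10, adjusted p = 0.0078; -0.55 to -0.35 over the arrays left out), and Cldn14 fell by 0.40 to GD9:00 in controls (adjusted p = 0.0109). Both calls ended when only the 2 groups were fitted (adjusted p = 0.0847 and 0.0699), and that of Cldn10 also on the authors' scaling (-0.45, adjusted p = 0.216). The 2 probes for Cldn18 disagreed: from GD8:15 to GD9:00 in controls probe 2715 fell by 1.12 (SE 0.37, adjusted p = 0.0465) and probe 4668 read 0.13 ± 0.23. The call of probe 2715 ended without any 1 array except control GD8:15 replicate 3 (-1.27 to -1.01). Cldn7, a partner of Cldn4 in epithelia, ranged from 7.54 to 9.12 within GD9:00 controls and was not called.

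The control and arsenic arms use separate arrays, so their stage differences can be compared. From GD8:15 to GD9:12, Lamc1, Col11a1, Cldn4 and Cdh1 were called in both arms in the same direction, which was 4 of 8 control calls (50%) and 4 of 7 arsenic calls (57.1%); over all probes it was 413 calls, 68.4% of the control and 38.2% of the arsenic calls. Up to GD9:00, Lamc1, Cldn4, Col2a1, Pcdhb7 and Cdh1 were called in both arms (41.7% and 71.4%, against 19.4% and 69.1% over all probes), and from GD9:00 to GD9:12, Col11a1 and Cldn12 (28.6% and 50%, against 22.2% and 64.1%). No member and no other probe was called in opposite directions. Across the 78 member probes the differences of the 2 arms correlated at r = 0.737, 0.687 and 0.749 for the first, second and whole interval, against 0.601, 0.622 and 0.769 across all 7830. These r are across probes, which are not independent and share normalisation and the stage's array codes.

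**Figure D4:**
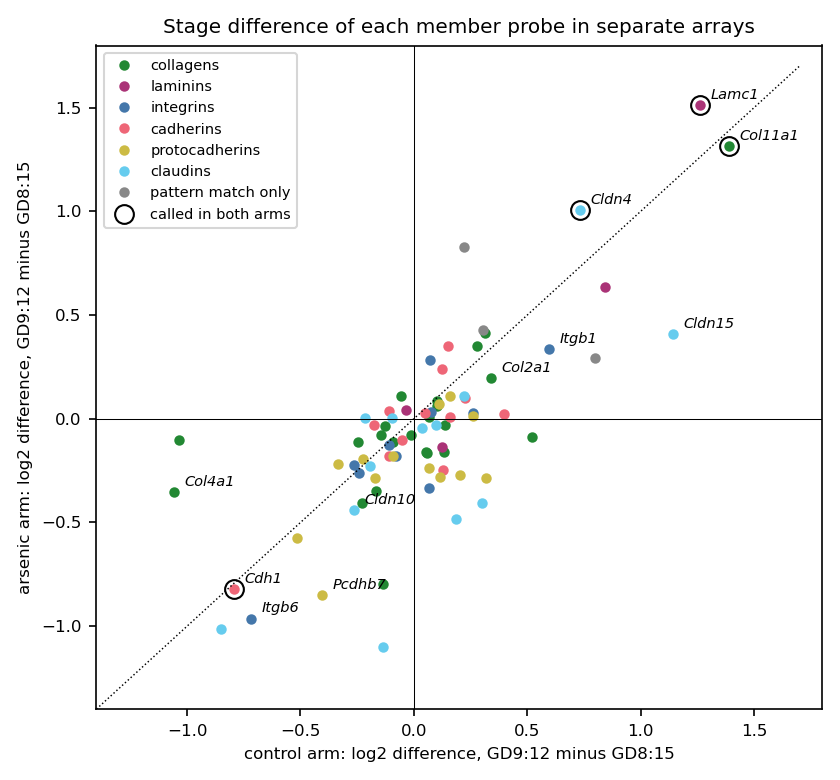
Log2 difference from GD8:15 to GD9:12 of each of the 78 tested member probes in the control arm (horizontal axis) and the arsenic arm (vertical axis), coloured by family, with the line of equal differences dotted. Lamc1, Col11a1, Cldn4 and Cdh1, ringed, were called in both arms and lie near the line (r = 0.749 over all 78).

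The array codes in the sample titles fell into series that were uneven over the groups. All GD9:00 arrays were of series C, while GD8:15 controls were of series A, C and D and GD8:15 arsenic arrays all of D, so stage and series cannot be told apart in the arsenic comparisons with GD8:15. What the series stand for is not given in the labels. With series C alone, GD8:15 controls had 1 array and no member was called from it to GD9:00 or to GD9:12 (33 and 19 of all probes were), with the lone array assumed to vary like the other groups. In that fit Lamc1, Col11a1 and Col4a1 kept their direction over the whole interval. From GD9:00 to GD9:12, where the arsenic arrays were all of series C, 3 members were called in controls of that series. The count of all probes called in that fit is not given here, so the 3 have no background beside them.

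Of genes that work with the members, the lists were collagen maturation and turnover, matrix partners, and junction adaptors, chosen by function with earlier results known. Their shares are to be read against the percentages of all probes given above. In collagen maturation 3 of 20 tested probes rose from GD8:15 to GD9:00 in controls and none fell, where 15% of all probes were called in either direction: Serpinh1, the collagen chaperone, by 0.72, P4ha1, a prolyl hydroxylase, by 0.71, and Plod2, a lysyl hydroxylase, by 0.61. Serpinh1 and P4ha1 then fell by 0.98 and 0.73 by GD9:12, where Pcolce rose, so the list had 1 higher and 2 lower (11.2% of all probes called). With arsenic P4ha1 rose by 0.64 to GD9:00, and Serpinh1 fell by 0.83 after it. Over the whole interval with arsenic none of the list rose and 3 fell, Plod3 by 0.83, Mmp11 by 0.61 and Serpinh1 by 0.49, where 13.8% of all probes were called. Among 21 matrix partners, Smoc1 and Fbln1, which bind basement membranes and matrix fibres, fell from GD8:15 to GD9:12 in both arms. The differences were -2.30 in controls and -2.10 with arsenic for Smoc1, and -1.03 and -1.13 for Fbln1. None of the list rose there; 2 of 21 were called in controls and 3 with arsenic, against 7.71% and 13.8% of all probes. Among 18 junction and adhesion adaptors, Tjp1, which ties claudins to actin, rose by 1.30 in controls and 2.03 with arsenic over that interval. Actn4 rose there too in both arms, giving 2 higher and 0 lower of 18 in controls and 3 higher and 2 lower with arsenic, against the same 7.71% and 13.8%. From GD8:15 to GD9:00 the adaptors had 4 higher and 1 lower in controls, against 15% of all probes. With arsenic they had 1 higher and 1 lower in that step, against 4.21%.

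Arsenic was the study's question, and no member passed at any stage. Arsenic minus control called 0 of 78 member probes at GD8:15, at GD9:00 and at GD9:12, and 0 for the average of the 3 stages, where 0% of all 7830 tested probes passed in each comparison; the change of the arsenic effect between stages (F test) called 0 members and 0% of all probes. At an unadjusted p under 0.05 there were 3 members of 571 probes at GD8:15, 8 of 984 at GD9:00, 1 of 100 at GD9:12 and 2 of 448 for the average, and 2 of 503 in the F test. The lowest adjusted p of a member was 0.428, 0.268, 1 and 0.864 in these comparisons and 0.692 in the F test. Groups did not overlap for 3.85%, 12.8% and 6.41% of members at the 3 stages, against 3.84%, 9.63% and 5.01% of all probes. The median difference of the members was 0.04, 0.07 and -0.05, and the median standard error of a member's difference was 0.14 to 0.15. A p that misses the threshold does not show that the arms were alike.

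**Figure D5:**
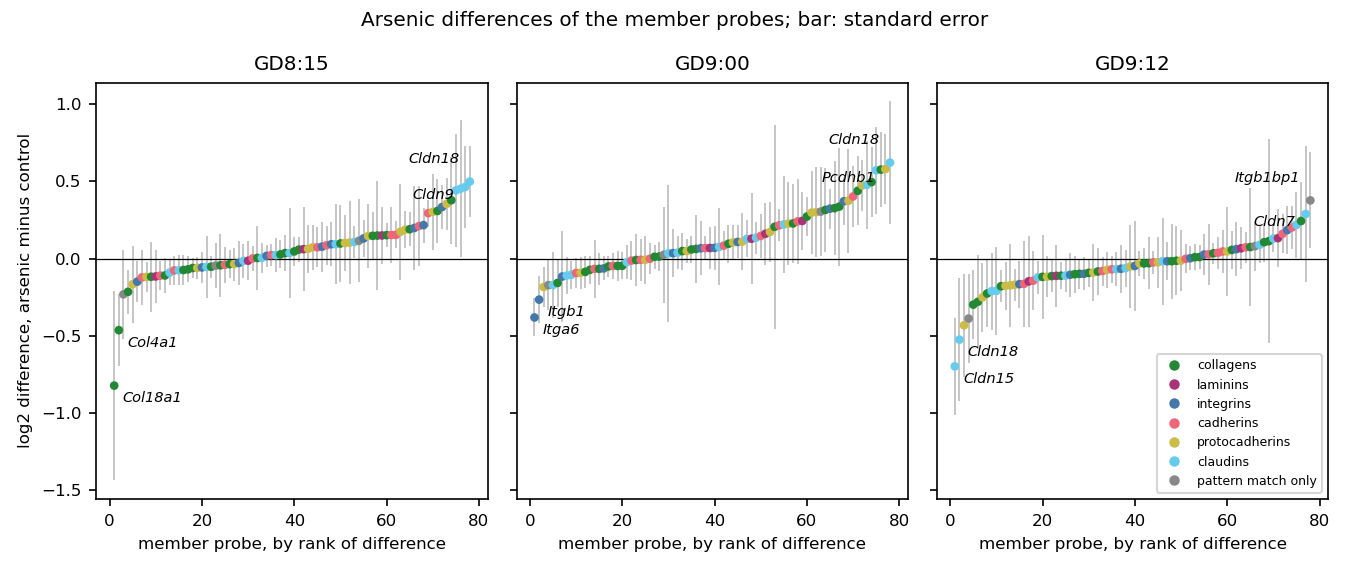
Log2 difference, arsenic minus control, of each of the 78 tested member probes at each stage, in order of the difference (horizontal axis), with the standard error as a bar and the family as colour; the 2 lowest and 2 highest are named. None was called.

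Cdh20 had the lowest adjusted p at GD8:15. It read 7.32, 7.68, 7.54 and 7.63 in controls and 7.89, 7.86, 7.73 and 7.86 with arsenic, without overlap, at 0.29 ± 0.09 (limma adjusted p = 0.428). Col2a1 and Itga6 were also above all controls at GD8:15, by 0.15 ± 0.08 and 0.22 ± 0.11 (adjusted p = 0.754 for both). Col4a1 read -0.46 ± 0.24 and Lamc1 -0.12 ± 0.17 at this stage.

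At GD9:00 Itga6 had the lowest adjusted p. All 3 arsenic arrays (7.39 to 7.50) lay below all 4 controls (7.56 to 8.19), at -0.38 ± 0.12 (limma adjusted p = 0.268), and on the authors' scaling the value was 0.10. Pcdhb1 and Pcdha12 lay above all controls, by 0.58 ± 0.22 and 0.47 ± 0.17 (adjusted p = 0.334 and 0.296). Itgb1, the partner of Itga6, read -0.27 ± 0.15 (adjusted p = 0.489), and 0.32 on the authors' scaling. Itga4, a receptor chain for fibronectin and VCAM1, read 7.51, 7.47, 6.83 and 6.86 in controls and 7.39, 7.40 and 7.83 with arsenic. Of its difference of 0.37 ± 0.16, 0.05 was left when the 2 banded control values were set aside (adjusted p = 0.902). Itga4 is also the member called when control GD9:00 replicates 1 and 2 were both left aside (0.68, limma adjusted p = 0.0216), which keeps those 2 low arrays. That setting called 57 probes in all. Under array weights Itga4 and Col23a1 were called (0.45 and 0.70, limma adjusted p = 0.0252 and 0.0354). They were 2 of the 201 probes called with weights at GD9:00, out of 7830 tested, where the equally weighted fit called 0. Col23a1 read 0.58 ± 0.24, or 0.36 without its banded value, in the equally weighted fit.

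At GD9:12 Cldn15 was the 1 member with an unadjusted p under 0.05, at -0.70 ± 0.32 (limma adjusted p = 1). Its control arrays read 11.27, 11.63 and 11.68 and its arsenic arrays 10.76, 10.05, 10.76 and 11.75, the last above every control. Lamc1, Col11a1, Cldn4 and Cdh1, which differed between stages in both arms, read 0.13 ± 0.19, 0.07 ± 0.38, 0.22 ± 0.21 and 0.05 ± 0.14 at GD9:12. For these 4 genes arsenic and control arrays overlapped at every stage.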

How the data were processed

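RNA was amplified, labelled with biotin and hybridised to 22 one-colour CodeLink arrays, per the labels' protocols. The deposited values are linear intensities, whole numbers whose array means differ by stage; scanner software, background correction and scaling method are not given in the sources used here. The 838 values of 1 or 2 were treated as missing, and log2 intensities were quantile-normalised. Probes were named from the platform annotation (9378 of 10500 with 1 symbol). A probe was tested when it had at least 2 values per group and a mean above the lowest 25% of probes. The 6 group means were fitted to all 7830 tested probes with limma 3.58.1 in R 4.3.3 (lmFit, eBayes; Benjamini-Hochberg over all probes). Bands were stretches where the running median over 51 brighter probes, in order of probe number, lay over 0.5 log2 under the median of the arrays; setting them aside was an alternative, as were other scalings, filters, weights, array codes and each array left out. The fit was tested on simulated data. Members and lists were chosen with earlier results of these data known. Named genes were, per comparison, the 10 highest and 10 lowest differences past the threshold, completed to 3 per direction by lowest p; up to 4 per role group of lowest p between GD8:15 and GD9:12 controls; and a set list of members such as Cdh1 and Lamc1. Other genes were named after their values were seen. Figures were drawn with Python 3.11.15 and matplotlib 3.10.9. Arrays give no counts, so their number limits the precision.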

Additional observations from a re-analysis of the deposited data

Results flagged for a closer look

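Of 236 groups of 4 arrays examined over 59 named members, 20 held 1 array far from the other 3; chance flags about 1 in 20 groups. Arsenic GD8:15 replicate 3 stood apart for Cldn6 (8.81, others 7.95 to 8.06), Cdh4 (8.62, others 7.58 to 7.61) and Cdh20 (7.73, others 7.86 to 7.89). Arsenic GD8:15 replicate 4 stood low, in bands, for Col5a2 (6.92) and Col4a5 (7.06), and Col4a5 also stood high on arsenic GD9:12 replicate 1 (7.66).

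In GD8:15 controls, replicate 3 was low for Itgb6 (9.53, others 10.42 to 10.46) and high for Lama1 (7.89) and Itgb3bp (7.38), and replicate 4 was low for Lamc1 (8.48). In GD9:00 controls, replicate 1 was low for Col9a2 (7.16, others 8.12 to 8.23) and for probe 6689 of Itgb2l (8.03). Replicate 2 was low, in bands, for Col18a1 (7.15, others 9.95 to 10.17) and Itga8 (7.07). Replicate 3 was low for Itgb3 (7.04), Itgb2 (7.24) and Pcdhb16 (6.96). Replicate 4 was low for Pcdhb1 (7.38, others 8.15 to 8.23) and Col4a1 (7.94), and high for Col4a6 (7.29).

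In 2 of the 59 named members every arsenic array lay to one side of the controls at one stage and to the other side at another. The share of all probes with such a turn was not taken. Within single stages, groups did not overlap for 3.84%, 9.63% and 5.01% of all probes. Pcdhb1 was 0.58 higher with arsenic at GD9:00 and 0.25 lower at GD9:12, a change of -0.83 (-0.831; limma adjusted p = 0.767). Itga6 was 0.22 higher at GD8:15 and 0.38 lower at GD9:00, a change of -0.60 (-0.598; adjusted p = 0.393). Neither change passed the test.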

How the results depend on the processing

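Of 1908 values of named members under alternatives, 1648 kept their direction and side of the threshold, 200 ended a call, 29 gained one and 31 turned direction; 4 of the 31 had been called. Comparisons are given as first, second and whole interval in controls, then with arsenic. Members called were 12, 7, 8, 7, 4 and 7, of 1173, 880, 604, 330, 304 and 1082 probes called in all. The authors' scaling called 31, 64, 13, 2, 10 and 8, of 2744, 5612, 1421, 151, 1816 and 1389 probes. Median centring called 13, 12, 13, 3, 8 and 13, of 1025, 1364, 974, 62, 765 and 1591. Array weights called 25, 21, 23, 12, 13 and 17, of 2086, 1921, 2242, 1309, 1955 and 1615. Fitting only the groups compared called 7 and 2 in the first 2 control comparisons, of 615 and 698 probes. It called 1 in the first arsenic one, of 47, and trended, robust eBayes called 12 in the last, of 1168. Series C alone called 0, 3 and 0 in controls. With 1 array left out the counts ran 7 to 13, 3 to 6, 2 to 6, 3 to 7, 0 to 2 and 5 to 11, and 0 to 0 for each arsenic effect. Chosen after seeing the data, leaving aside arsenic GD8:15 replicate 3 and arsenic GD9:00 replicate 3 called 11 in the last comparison, and leaving aside control GD9:00 replicates 1 and 2 called 7 and 3 in the first 2. At GD9:00 the arsenic effect called 1 member in that last setting, of 57 probes called in all. It called 2 members under array weights, of 201 probes, and 0 members otherwise.

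On the authors' scaling these turned direction: Col2a1 (-0.0526) and Cdh20 (-0.159) in the first control comparison, and Itga6 (0.191), Cldn12 (0.2) and Col13a1 (0.319) in the second. In the whole control interval Lamb3 (0.0804), Itga3 (0.0735), Itgb6 (0.0268), Cdh23 (0.0608), Pcdhb7 (0.0089), Pcdhb8 (0.115), Col4a5 (0.123) and Col1a1 (0.0739) did. For arsenic, Col13a1 at GD8:15 (0.026), Itga6 (0.103), Itgb1 (0.318) and Pcdh7 (0.00323) at GD9:00, and Pcdhb2 (0.141), Col13a1 (0.087) and Col5a3 (0.21) for the average did. Elsewhere these turned in the whole control interval: Col4a2 with median centring (-0.0249), Cdh17 without GD8:15 replicate 3 (-0.0597) or GD9:12 replicate 3 (-0.125; -0.125 to 0.176 over the arrays left out), and with series C alone Itga3 (0.0402), Itgb6 (0.0368), Itgb3 (0.0849), Col18a1 (0.661), Itgb1bp1 (-0.0403), Pcdhb8 (0.374) and Cdh11 (-0.0827). Pcdh7 turned at GD9:00 with array weights (0.00229). The cause was not tested beyond the scaling itself. No paired analysis was possible because the labels give the samples no shared replicate numbers. Signal near background limits the dim probes.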
